A study of Mus musculus with 45 samples.

Results

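The genes described here are 9 members of the transforming growth factor beta (TGF-beta) pathway: the ligand genes Tgfb1, Tgfb2 and Tgfb3, the receptor genes Tgfbr1, Tgfbr2 and Tgfbr3, the feedback genes Smad7 and Pmepa1, and Ltbp2, which encodes a matrix protein of the latent TGF-beta binding family. Each was read from its brightest array probe set that carried 1 gene symbol. Such a probe set was found for 8 of the 9, out of 18820 genes measured in this way. Only a probe set shared with Mib1 was annotated to Tgfbr2, so Tgfbr2 was not analysed here. All 8 lay above the median of the whole table, a log2 value of 5.67, in each of the 45 tumours, and all 8 were among the 12123 genes kept for testing.

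Every tumour arose from a BALB/c mammary fragment lacking Trp53, so all groups share the loss of that tumour suppressor. Fragments were grafted into inguinal mammary fat of wild-type females, also BALB/c, at 10 weeks of age. The hosts' own mammary epithelium had been taken out at 3 weeks, and the host alone, never the fragment, had been exposed to silicon (Si) ions 3 days before. Counted as arrays, the sham group held 18 tumours, the 10 cGy group 9, the 30 cGy group 10 and the 80 cGy group 8. The labels do not say how the Trp53 allele was made, and a whole tumour holds host stroma, vessels and leukocytes beside the donor-derived cells. In such bulk samples, fewer cells of a type and less RNA per cell cannot be told apart. The description codes of 16 tumours form 8 pairs that differ only in a last letter, L or R. Whether a pair shares a host is not stated, so p-values measure the spread between tumours, which may not all be from separate mice.

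TGF-beta ligands are secreted in a latent complex, which latent TGF-beta binding proteins tether to the matrix. Once released, a ligand joins the type II receptor (Tgfbr2) with the type I receptor (Tgfbr1), while the type III receptor, betaglycan (Tgfbr3), presents ligand, TGF-beta 2 above all. The activated type I receptor phosphorylates Smad2 and Smad3, which enter the nucleus with Smad4. Smad7 and Pmepa1 are induced by this signal and dampen it, and in the mammary gland TGF-beta is known for restraining epithelial growth and for acting on stroma and matrix.

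Tumours differed in cell content in ways that touch the results below. A marker score is the mean over a cell type's marker genes of log2 expression minus each gene's mean over tumours. The epithelial junction markers, which define an epithelial tumour, were all measured and kept (8 of 8), but their score lay below -2 in 8 tumours, 4 of them sham, 1 at 10 cGy, 1 at 30 cGy and 2 at 80 cGy. The muscle or fat score was above 2 in 7 tumours (4 sham, 1 at 30 cGy, 2 at 80 cGy). Sham replicate 16 and 10 cGy replicate 1 had endothelium scores of 2.74 and 2.80, against at most 0.94 at 30 cGy and 0.66 at 80 cGy, and were the most alike 2 tumours of the series (r = 0.978 over kept genes). Calls lost or gained without such tumours are given with the results.

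The promoters of 4 genes are shown because the tumours paired or separated them: Tgfbr1 and Ltbp2 varied together over the 45 tumours, and the ligands Tgfb1 and Tgfb2 did not (correlations below). Sequences are RefSeq's on build GRCm38.p6, from 250 bases before to 50 after the start that each promoter entry gives, 5′ to 3′ on the gene's strand. RefSeq's promoter table held 5 of the 9 genes. Tgfbr2, the other of them, is not shown because it has no value here, and of 2 entries for Tgfbr1 the one at the start of the gene is printed. Tgfb1 is at chr7:25686752-25687051 (plus strand), Tgfb2 at chr1:186705940-186706239 (minus), Tgfbr1 at chr4:47352972-47353271 (plus) and Ltbp2 at chr12:84876442-84876741 (minus). The annotated genes of Tgfb2 and Ltbp2 begin at 186709697 and 84876558 on the minus strand, so the starts used for both lie inside the gene. Capitals mark every match to the Smad box CAGAC, the TATA box TATAAA, the GC box GGGCGG, the AP-1 site TGACTCA or the cAMP response element TGACGTCA, each searched on both strands.
Tgfb1: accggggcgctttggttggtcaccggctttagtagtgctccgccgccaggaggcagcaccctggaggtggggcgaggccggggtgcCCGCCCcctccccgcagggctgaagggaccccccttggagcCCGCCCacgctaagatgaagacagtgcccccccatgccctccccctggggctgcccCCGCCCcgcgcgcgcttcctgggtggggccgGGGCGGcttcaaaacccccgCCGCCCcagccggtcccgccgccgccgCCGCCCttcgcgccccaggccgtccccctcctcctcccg
Tgfb2: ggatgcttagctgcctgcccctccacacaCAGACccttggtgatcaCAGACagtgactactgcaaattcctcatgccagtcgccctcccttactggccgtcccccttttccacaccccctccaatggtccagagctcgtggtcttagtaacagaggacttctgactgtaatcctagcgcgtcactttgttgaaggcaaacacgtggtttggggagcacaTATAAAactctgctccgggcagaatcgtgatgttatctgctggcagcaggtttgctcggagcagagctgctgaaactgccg
Tgfbr1: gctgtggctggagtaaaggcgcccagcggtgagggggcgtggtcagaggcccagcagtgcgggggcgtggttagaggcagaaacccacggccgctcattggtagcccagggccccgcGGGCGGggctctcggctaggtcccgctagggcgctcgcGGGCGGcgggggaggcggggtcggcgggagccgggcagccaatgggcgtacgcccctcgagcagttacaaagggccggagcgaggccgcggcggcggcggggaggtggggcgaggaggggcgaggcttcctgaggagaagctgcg
Ltbp2: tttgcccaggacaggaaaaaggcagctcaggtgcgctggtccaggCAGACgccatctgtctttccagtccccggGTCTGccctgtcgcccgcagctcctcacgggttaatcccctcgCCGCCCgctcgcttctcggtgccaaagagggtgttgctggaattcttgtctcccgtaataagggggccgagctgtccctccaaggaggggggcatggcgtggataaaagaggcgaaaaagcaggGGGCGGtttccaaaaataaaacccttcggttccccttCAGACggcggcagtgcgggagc
Ltbp2 held 3 Smad boxes and Tgfb2 held 2, while the letters CAGAC or their complement were not in the printed Tgfb1 and Tgfbr1 windows. The Tgfbr1 entry that is not printed held 1 Smad box. This short motif was present in 49.6% of all 32851 promoters of the same length in the table. Tgfb2 was the gene with a TATA box, at offset -31 from the start that its entry gives, a motif in 13.6% of promoters. Tgfb1 held 6 GC boxes, and Tgfbr1 and Ltbp2 held 2 each, a motif in 35.7% of promoters. The 4 windows had no AP-1 site (5.2% of promoters) and no cAMP response element (1.79%), and no matches overlapped. Their GC content was 77.0% for Tgfb1, 54.3% for Tgfb2, 74.7% for Tgfbr1 and 61.0% for Ltbp2, against a median of 52.7% over all promoters. A match describes letters, not binding.

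Between hosts, the ligand genes Tgfb1 and Tgfb2, both receptor genes and Ltbp2 had differences from sham whose 95% intervals included 0 at every dose. The interval of Ltbp2 excluded 0 only with all doses together (0.09 to 0.99). Single-dose intervals that excluded 0 were those of Tgfb3 at 30 cGy and of Smad7 and Pmepa1 at 80 cGy. Tgfb3, Smad7, Pmepa1 and Ltbp2 had the larger positive differences, and Smad7 and Pmepa1 had theirs at 80 cGy. No member passed the test in any comparison (limma, adjusted p under 0.05 over 12123 genes), and none of the 12123 genes did: the share called was 0% with all Si doses together, at 10, 30 and 80 cGy, on dose, among the 4 groups and among the 3 doses. The smallest adjusted p of any gene was 0.157, for the slope on dose, and 0.251 for all Si doses against sham. Differences from sham are therefore given as values with standard errors, and all 3 dose comparisons use the same sham tumours.

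**Figure D1:**
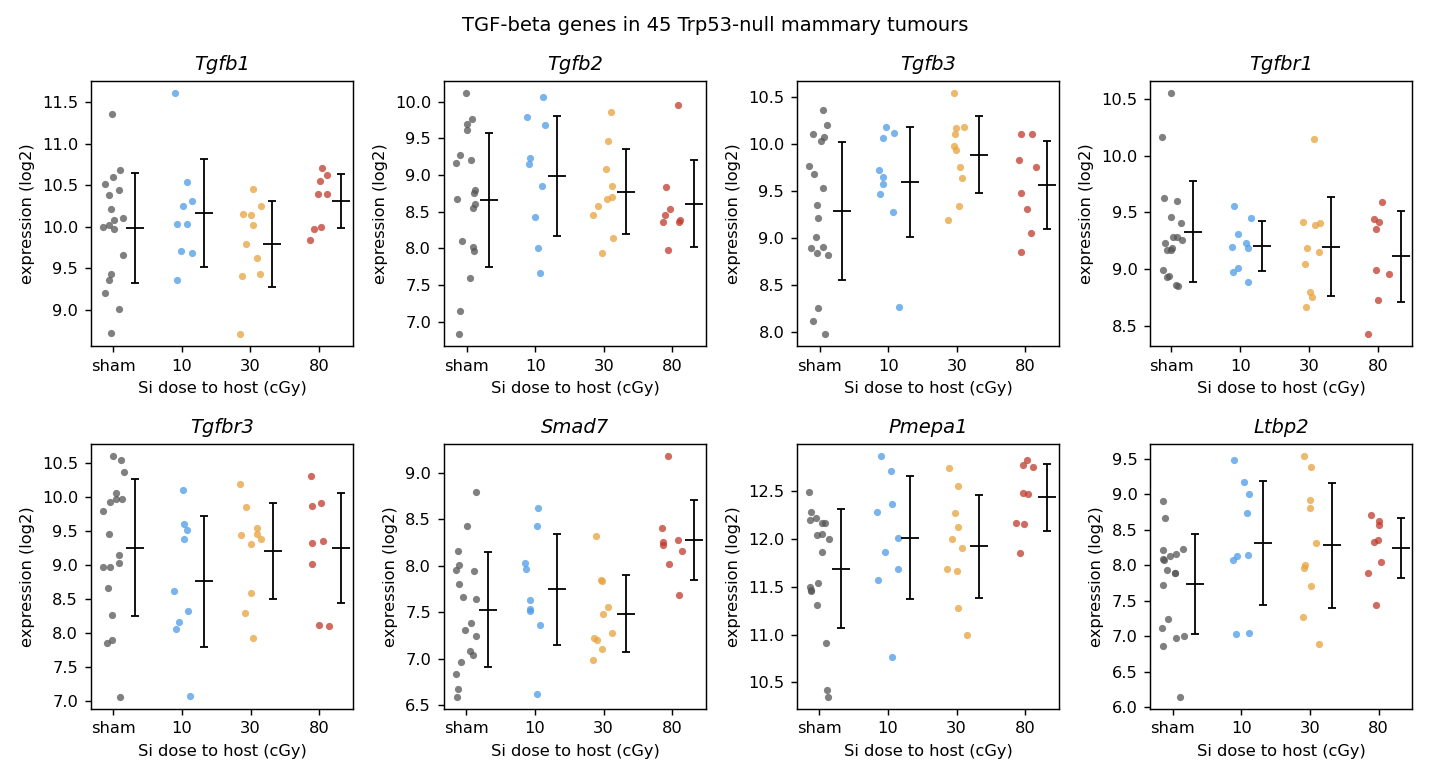
Log2 expression of the 8 measured TGF-beta genes (vertical axes) in each tumour, by Si dose to the host in cGy (horizontal axes; 18, 9, 10 and 8 tumours), with each group's mean ± SD beside the points. The groups overlap for every gene, and the 80 cGy tumours all lie above the sham mean for Smad7 and Pmepa1.

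Tgfb1 encodes the most widely expressed of the ligands. In sham hosts it ran from 8.72 through a median of 10.05 to 11.36. At 10 cGy its lowest, median and highest values were 9.36, 10.04 and 11.61. At 30 cGy they were 8.71, 9.91 and 10.45, and at 80 cGy 9.84, 10.40 and 10.71. The groups overlapped, and the highest values of the series were those of 10 cGy replicate 1 and sham replicate 16, the tumours with the high endothelium scores. The difference from sham was 0.18 ± 0.23 at 10 cGy, -0.19 ± 0.23 at 30 cGy and 0.32 ± 0.24 at 80 cGy on the log2 scale. Without 10 cGy replicate 1 the first of these was 0.0017, and without 30 cGy replicate 10 the second was -0.07. Over all doses the difference was 0.11 ± 0.18, with a 95% interval from -0.25 to 0.46, and it was 0.03 without sham replicate 18 and 0.19 without sham replicate 16.

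Tgfb2, the ligand that depends most on betaglycan, ran from 6.83 through 8.72 to 10.12 in sham hosts. The corresponding values were 7.67, 9.15 and 10.07 at 10 cGy, 7.93, 8.69 and 9.86 at 30 cGy, and 7.98, 8.42 and 9.96 at 80 cGy. All Si values lay inside the sham range. At 80 cGy, replicate 1 stood at 9.96 with the next tumour at 8.84, and 2 of 8 tumours were above the sham mean. The difference from sham was 0.33 ± 0.31 at 10 cGy, 0.11 ± 0.30 at 30 cGy and -0.05 ± 0.33 at 80 cGy. The last of these was -0.24 without 80 cGy replicate 1. Over all doses it was 0.13 ± 0.23, interval -0.34 to 0.60, and 0.02 without sham replicate 4.

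Tgfb3, whose protein is made by mammary epithelium and is known for its part in milk stasis and involution in mice, ran from 7.98 through 9.28 to 10.36 in sham hosts. At 10 cGy its values were 8.27, 9.65 and 10.18, at 30 cGy 9.19, 9.96 and 10.54, and at 80 cGy 8.85, 9.61 and 10.11. The lowest tumour of the series was sham replicate 10 at 7.98, and the highest was 30 cGy replicate 7 at 10.54. Of the Si tumours, 22 of 27 were above the sham mean, 9 of 10 at 30 cGy, and 1 was above the highest sham tumour. The difference from sham was 0.31 ± 0.24 at 10 cGy, 0.60 ± 0.23 at 30 cGy and 0.28 ± 0.25 at 80 cGy. Over all doses it was 0.39 ± 0.18, interval 0.03 to 0.76 (limma, unadjusted p = 0.0348, adjusted p = 0.838). The 30 cGy value had an unadjusted p of 0.0139 and an adjusted p of 0.99 in limma, and a permutation test over tumours gave 0.0258 unadjusted.

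Beside the Tgfb3 values, the epithelial junction markers were on the higher side in Si hosts for 8 of 8 genes at 30 cGy (median 0.47). They were also higher for 8 of 8 at 10 cGy (median 0.57) and for 6 of 8 at 80 cGy (median 0.18). None passed the test. Over all genes the median difference was 0.00828 at 10 cGy, -0.00322 at 30 cGy and 0.0325 at 80 cGy. The junction score ran from -3.95 to 1.53 in sham and from -3.50 to 1.25 at 30 cGy. With that score as a covariate, Tgfb3 at 30 cGy was 0.52. Neutrophil markers were on the lower side for 6 of 6 genes at 30 cGy (median -0.91, none passing the test), with a score from -1.78 to 1.09 against -1.86 to 2.91 in sham. They were also lower for 6 of 6 at 10 cGy (median -0.44) and higher for 6 of 6 at 80 cGy (median 0.28). The part of the neutrophil markers in the Tgfb3 difference was not tested.

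The type I receptor gene Tgfbr1 varied least of the 8, with an SD of 0.39 over tumours against a median of 0.43 over all kept genes. It ran from 8.85 through 9.25 to 10.55 in sham hosts, from 8.89 through 9.20 to 9.56 at 10 cGy, from 8.67 through 9.17 to 10.15 at 30 cGy and from 8.43 through 9.17 to 9.59 at 80 cGy. Its highest values were sham replicates 5 and 6 at 10.55 and 10.16, and 5 of 27 Si tumours lay below the lowest sham tumour. The difference over all doses was -0.16 ± 0.12, interval -0.40 to 0.09, and -0.09 without sham replicate 5. It was 0.02 when only the 8 sham tumours whose codes begin with 6 were used. Those tumours averaged 9.16 ± 0.25 (SD), and the 10 whose codes begin with 5 averaged 9.47 ± 0.52. What that first digit stands for is not stated. In Si tumours it was 3 at 10 cGy, 2 at 30 cGy and 1 at 80 cGy throughout. Whatever it stands for therefore cannot be told apart from the host group.

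Betaglycan, the co-receptor encoded by Tgfbr3, varied most of the 8, with an SD of 0.90 that exceeded that of 85.9% of kept genes. It ran from 7.06 through 9.30 to 10.61 in sham hosts, from 7.07 through 8.62 to 10.10 at 10 cGy, from 7.93 through 9.42 to 10.19 at 30 cGy and from 8.10 through 9.33 to 10.31 at 80 cGy. All Si tumours lay inside the sham range. The difference was -0.49 ± 0.36 at 10 cGy, -0.05 ± 0.35 at 30 cGy and -0.01 ± 0.38 at 80 cGy, and -0.18 ± 0.27 over all doses (interval -0.73 to 0.36). The 10 cGy value was -0.28 without 10 cGy replicate 7, and the value over all doses ran from -0.31 without sham replicate 11 to -0.10 without sham replicate 18.

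Smad7 encodes the inhibitory Smad that competes for the type I receptor and brings ubiquitin ligases to it. In sham hosts it ran from 6.59 through 7.51 to 8.79. At 10 cGy its values were 6.62, 7.63 and 8.62, at 30 cGy 6.98, 7.38 and 8.32, and at 80 cGy 7.68, 8.24 and 9.18. All 8 tumours at 80 cGy were above the sham mean of 7.53, and replicate 1 alone was above the highest sham tumour, so the groups overlapped. The difference from sham was 0.22 ± 0.22 at 10 cGy, -0.05 ± 0.21 at 30 cGy and 0.75 ± 0.23 at 80 cGy (interval 0.29 to 1.21). At 80 cGy the unadjusted p was 0.00207 and the adjusted p was 0.639 in limma, and the difference was 0.62 without 80 cGy replicate 1. Among the 3 doses themselves Smad7 had an unadjusted p of 0.0116 (adjusted p = 0.999, limma F test), where 3.98% of all genes had an unadjusted p under 0.05, and it was the single member below that mark.

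Pmepa1, whose membrane protein binds receptor-activated Smads and limits their phosphorylation, ran from 10.35 through 11.93 to 12.49 in sham hosts. Its values were 10.77, 12.01 and 12.87 at 10 cGy, 11.00, 11.96 and 12.74 at 30 cGy, and 11.85, 12.48 and 12.83 at 80 cGy. The low tail below 11 held sham replicates 4, 16 and 18 and 10 cGy replicate 1. Of the 27 Si tumours, 7 were above the highest sham tumour, 3 of them at 80 cGy, where 8 of 8 were above the sham mean. The difference from sham was 0.32 ± 0.23 at 10 cGy, 0.23 ± 0.22 at 30 cGy and 0.74 ± 0.24 at 80 cGy (interval 0.26 to 1.22). At 80 cGy the unadjusted p was 0.00332 and the adjusted p was 0.651 in limma. Over all doses the difference was 0.43 ± 0.17 (unadjusted p = 0.0157, adjusted p = 0.796), and 0.35 without sham replicate 18.

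With dose as a number, Smad7 sloped by 0.084 ± 0.028 and Pmepa1 by 0.085 ± 0.029 log2 units per 10 cGy, each with an adjusted p of 0.55 in limma. These were the members with an unadjusted p under 0.05 on dose (2 of 8, against 7.43% of all genes) and also at 80 cGy (2 of 8, against 6.97%). The 30 cGy group did not lie between its neighbours for Smad7: its mean of 7.48 was below that of 10 cGy (7.74) and close to sham (7.53). Nor did it for Pmepa1, whose means were 11.69 in sham, 12.01 at 10 cGy, 11.92 at 30 cGy and 12.43 at 80 cGy. The host group accounted for 23.2% of the variance of Smad7 and 18.9% of that of Pmepa1. For the other members it ran from 3.09% for Tgfb2 to 13.7% for Tgfb3. The limma F test among the 4 groups gave Smad7 and Pmepa1 an adjusted p of 0.985 each.

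Several marker lists stood mostly on 1 side at 80 cGy beside these 2 genes, with no marker passing the test. Fibroblast markers were higher for 8 of 8 genes (median 0.49), and their score ran from -1.15 to 1.65 at 80 cGy and from -2.18 to 1.59 in sham. Neutrophil markers were higher for 6 of 6 (median 0.28), macrophage markers for 7 of 8 (median 0.24) and skeletal muscle markers for 6 of 6 (median 0.96), while basal epithelial markers were lower for 8 of 8 (median -0.92). Over all 12123 genes, 56.6% were on the higher side at 80 cGy, and the median difference was 0.0325. With the fibroblast score as a covariate, Smad7 was 0.65 ± 0.22 and Pmepa1 0.71 ± 0.24 at 80 cGy. Without the tumours high in muscle or fat markers they were 0.76 ± 0.24 and 0.89 ± 0.28. The part of the other lists in these differences was not tested.

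Ltbp2, which encodes a fibrillin-associated matrix protein that, unlike its relatives, does not bind latent TGF-beta, ran from 6.15 through 7.91 to 8.91 in sham hosts. Its values were 7.03, 8.15 and 9.48 at 10 cGy, 6.89, 8.16 and 9.54 at 30 cGy, and 7.44, 8.34 and 8.70 at 80 cGy. The difference from sham was of like size at the doses: 0.57 ± 0.30 at 10 cGy, 0.54 ± 0.29 at 30 cGy and 0.51 ± 0.31 at 80 cGy. Of the 27 Si tumours, 21 were above the sham mean of 7.74 and 6 were above the highest sham tumour, 3 at 10 cGy and 3 at 30 cGy. The lowest value of the series was sham replicate 18 at 6.15. Over all doses the difference was 0.54 ± 0.22, interval 0.09 to 0.99 (limma, unadjusted p = 0.019, adjusted p = 0.799), and 0.45 without sham replicate 18. Among the 3 doses, its F test gave an unadjusted p of 0.981.

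**Figure D2:**
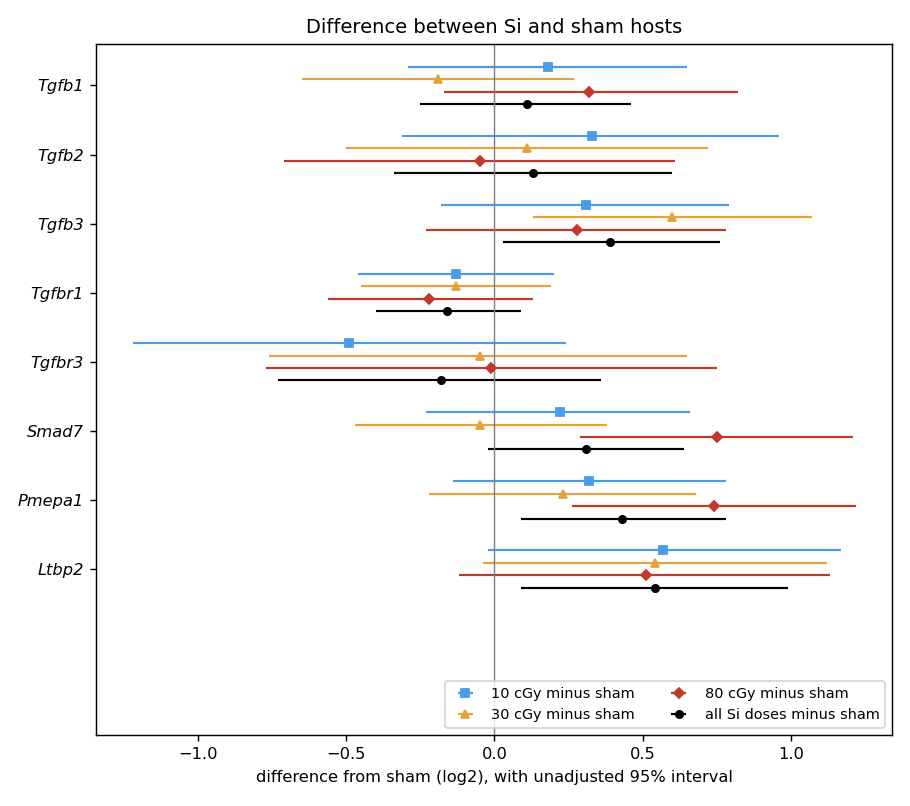
Difference of each TGF-beta gene between tumours of Si hosts and of sham hosts (horizontal axis, log2 units), for 10, 30 and 80 cGy and for the unweighted mean of the 3 doses, with unadjusted 95% intervals from limma as bars. The intervals of Tgfb1, Tgfb2, Tgfbr1 and Tgfbr3 include 0 in all 4 comparisons, and those of Smad7 and Pmepa1 at 80 cGy run from 0.29 to 1.21 and from 0.26 to 1.22.

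Read against all genes, 3 of 8 members (Tgfb3, Pmepa1 and Ltbp2) had an unadjusted p under 0.05 for all Si doses against sham, where 5.82% of genes did. The count was 0 of 8 at 10 cGy (3.65% of genes), 1 of 8 at 30 cGy (4.45%) and 2 of 8 among the 4 groups (4.13%). Permutation tests over tumours left the same members under that mark for all Si doses (unadjusted p = 0.0189 for Pmepa1, 0.019 for Ltbp2 and 0.0377 for Tgfb3). For all doses together 6 of 8 members were on the higher side, as were 53.2% of all genes, and the median difference was 0.22 for the members and 0.01 for all genes. The members were chosen with Pmepa1 and Ltbp2 already known to be high, so these counts describe them and are no independent support.

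Other genes of the pathway showed no change that passed the test in any comparison, 35 genes having been measured and kept from 5 lists. Of 6 latency and matrix storage genes, 2 were on the higher side and 4 on the lower for all Si doses. Ltbp3 (0.23 ± 0.20) and Emilin1 (0.24 ± 0.25), whose proteins help to hold or process the latent complex, were on the higher side. Fbn2, which encodes a fibrillin (-0.44 ± 0.28), and Ltbp1, which encodes the main binding protein of the latent complex (-0.31 ± 0.29), were on the lower. Fbn1 was not measured by a probe set with 1 symbol.

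Of 5 genes whose products release active ligand, 3 were on the higher side, led by Itgb6 (0.31 ± 0.40), the beta chain of an epithelial integrin that binds the latent complex, and the matrix metalloproteinase gene Mmp14 (0.08 ± 0.17). Both integrin chain genes on the lower side, Itgav (-0.03 ± 0.12) and Itgb8 (-0.01 ± 0.34), stood near 0. Among 3 accessory receptors, the pseudoreceptor gene Bambi (0.27 ± 0.19) and the endothelial co-receptor gene Eng (0.14 ± 0.20) were on the higher side. Acvrl1, which encodes an endothelial type I receptor, was -0.40 ± 0.17 (limma, unadjusted p = 0.0214, adjusted p = 0.808).

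The 10 Smads and Smad modulators stood close to sham for all Si doses, with 6 on the higher side and a median of 0.03. Rnf111, a ubiquitin ligase gene whose product removes Smad repressors, was 0.15 ± 0.07 and Smad2 was 0.08 ± 0.08, while the ubiquitin ligase genes Smurf1 and Smurf2 were -0.09 ± 0.09 and -0.08 ± 0.11. Of 11 genes known to be induced by TGF-beta, 7 were on the higher side, with a median of 0.08. Bhlhe40, a repressor of transcription, was 0.38 ± 0.20, and Postn, which encodes the matrix protein periostin, was 0.17 ± 0.16. Tgfbi, another matrix protein gene, was -0.09 ± 0.22. Klf10, an early TGF-beta response gene, was -0.29 ± 0.11 (limma, unadjusted p = 0.013, adjusted p = 0.796). Its difference was 0.07 ± 0.15 at 10 cGy, -0.56 ± 0.15 at 30 cGy and -0.38 ± 0.16 at 80 cGy, where it lay on the other side of sham from Smad7 and Pmepa1. At 80 cGy 9 of the 11 induced genes were on the higher side (median 0.25), and those on the lower side were Klf10 and Snai2 (-0.75 ± 0.49), a repressor of epithelial genes named here after its values were seen. Their largest positive values were those of Col1a1 (0.53 ± 0.44), Junb (0.46 ± 0.24) and Bhlhe40 (0.45 ± 0.28), the first 2 also named after their values were seen.

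Across the 45 tumours the feedback genes varied together more than any other pair of members. Of 28 pairs, 8 passed (permutation test of Pearson r, Benjamini-Hochberg adjusted over the 28), 7 of them positive, and the median r over all pairs was 0.17. Smad7 and Pmepa1 had r = 0.63 (rho = 0.54, permutation p = 2e-05, adjusted p = 0.00056, n = 45), and r = 0.67 without the 2 tumours farthest on Smad7. Within host groups their r was 0.69 in sham, 0.57 at 10 cGy, 0.41 at 30 cGy and -0.09 at 80 cGy, where neither gene had a low tumour. After the host group means were taken out it was 0.55. These are correlations of 1 array per tumour, so that cell content and array quality are shared by both genes.

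**Figure D3:**
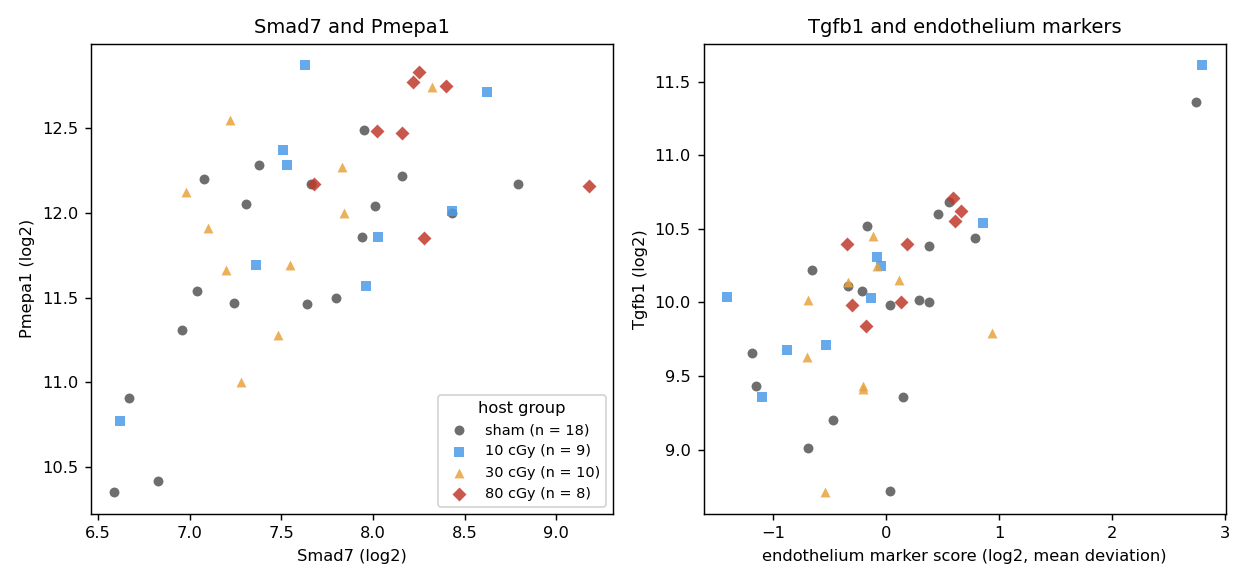
Left, Pmepa1 against Smad7 (both log2) and right, Tgfb1 (log2) against the endothelium marker score, 1 point per tumour, coloured by host group (18 sham, 9, 10 and 8 tumours at 10, 30 and 80 cGy). Smad7 and Pmepa1 were low together in sham replicates 4, 16 and 18 and 10 cGy replicate 1, and the 2 tumours with endothelium scores of 2.74 and 2.80 have the highest Tgfb1.

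Ltbp2 joined this pair: r was 0.48 with Smad7 (rho = 0.47, permutation adjusted p = 0.0105) and 0.44 with Pmepa1 (rho = 0.29, permutation adjusted p = 0.0178 for r and 0.144 for rho). The second of these was 0.26 without the 2 tumours farthest on Pmepa1, so it rests in part on tumours with low Pmepa1. Within host groups it was 0.60 in sham, 0.31 at 10 cGy, 0.38 at 30 cGy and -0.67 at 80 cGy. Ltbp2 also followed Tgfbr1, with r = 0.42 (rho = 0.43, permutation adjusted p = 0.0178), 0.45 without the 2 farthest tumours and between 0.43 and 0.61 within each host group. Their promoters, printed above, held 2 GC boxes each and differed in the Smad box, with 3 in Ltbp2 and 0 in Tgfbr1. Of the pairs that passed, this was the one with an r above 0.4 in every host group.

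The ligands split. Tgfb2 and Tgfb3 varied together (r = 0.42, rho = 0.41, permutation adjusted p = 0.0178, and 0.40 without the 2 farthest tumours), whereas Tgfb1 had r = -0.18 with Tgfb2 and -0.11 with Tgfb3, neither passing. Tgfb2 followed Pmepa1 (r = 0.47, rho = 0.37, permutation adjusted p = 0.0105). That relation was 0.69 in sham and 0.79 at 10 cGy but 0.04 at 30 cGy and -0.29 at 80 cGy. Tgfb3 followed Pmepa1 with r = 0.41 (permutation adjusted p = 0.0198), 0.29 without the 2 farthest tumours and with a rho of 0.30 that did not pass (adjusted p = 0.133). Tgfb2 and its co-receptor Tgfbr3 went opposite ways, with r = -0.38 (rho = -0.39, permutation adjusted p = 0.0356), from -0.55 in sham to 0.01 at 30 cGy.

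The place of Tgfb1 depended on the 2 tumours with high endothelium scores, in which Tgfb1 was highest and Smad7 and Pmepa1 were low. Over all 45 tumours Tgfb1 had r = 0.25 with Smad7, 0.14 with Pmepa1 and 0.24 with Ltbp2, none passing. Its rho with Smad7 (0.39) and with Tgfbr1 (0.40) did pass (permutation adjusted p = 0.0334 each). Without the 2 tumours, r was 0.58 with Smad7, 0.45 with Pmepa1 and 0.47 with Ltbp2 (permutation adjusted p = 0.00168, 0.0167 and 0.0137). Among tumours with a junction score above -2, these were 0.57, 0.45 and 0.49, and all 3 passed. That cut also leaves out the same 2 tumours, whose junction scores were -3.335 (sham replicate 16) and -3.695 (10 cGy replicate 1). It is therefore no separate check.

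Other pairs lost their call. Tgfb2 with Tgfbr3 was -0.34 without tumours high in muscle or fat markers (permutation adjusted p = 0.12) and -0.36 at junction scores above -2 (adjusted p = 0.0838). At those junction scores Tgfb2 with Tgfb3 was 0.29 (permutation adjusted p = 0.162) and Tgfb3 with Pmepa1 was 0.31 (adjusted p = 0.141). The latter was 0.33 without the tumours high in endothelium markers (permutation adjusted p = 0.0687).

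**Figure D4:**
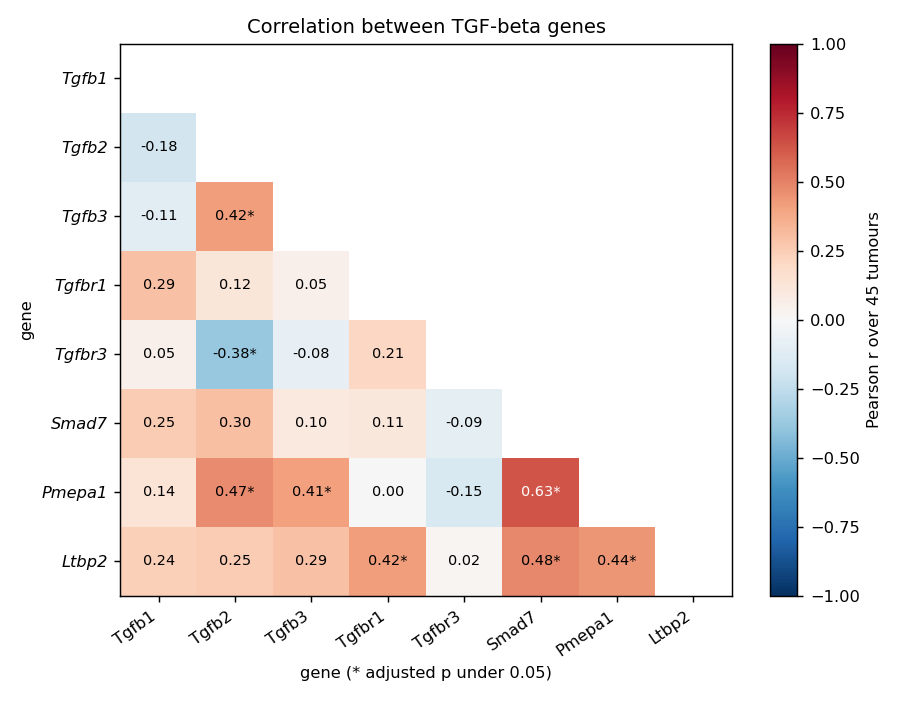
Pearson r over 45 tumours for the 28 pairs of TGF-beta genes, as colour and number, with a star where the adjusted permutation p is under 0.05. The block of Smad7, Pmepa1 and Ltbp2 at the lower right holds r from 0.44 to 0.63, and over all 45 tumours no r of Tgfb1 with another member passes.

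Tgfb1 followed the markers of stroma. Of 72 correlations of the 8 members with 9 marker scores, 56 are given. The epithelial junction and skeletal muscle scores have tumours standing apart, so no r over all tumours is given for them. Of the 56, 12 passed after adjustment over the 72, 10 of them positive. Tgfb1 had r = 0.68 with the endothelium score (rho = 0.62, permutation p = 1e-05, the smallest that 100000 resamples can give, adjusted p = 0.00072). It was 0.50 without the 2 farthest tumours, and 0.67, 0.93, 0.23 and 0.74 within sham, 10, 30 and 80 cGy. Tgfb1 also had r = 0.55 with fibroblast markers (rho = 0.59, permutation adjusted p = 0.00216), 0.54 with macrophage markers (rho = 0.50, permutation adjusted p = 0.00288) and 0.42 with neutrophil markers (rho = 0.44, permutation adjusted p = 0.0257). Without the 2 farthest tumours these were 0.56, 0.41 and 0.44. With basal epithelial markers r was -0.56 (rho = -0.49, permutation adjusted p = 0.00144), and -0.51 without the 2 farthest.

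**Figure D5:**
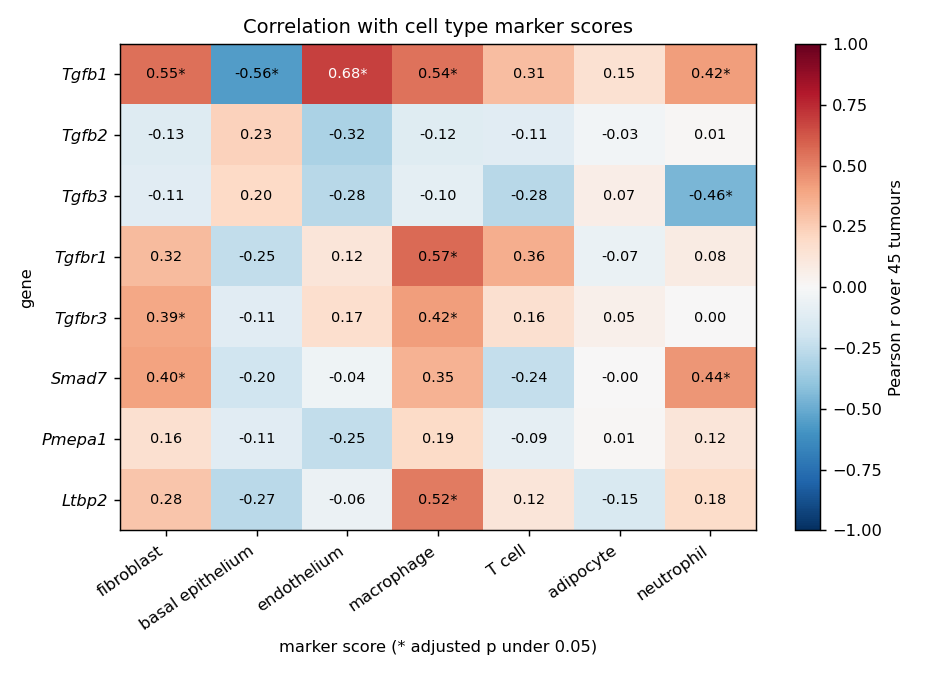
Pearson r over 45 tumours of each TGF-beta gene (rows) with 7 cell type marker scores (columns), with a star where the permutation p adjusted over 72 correlations is under 0.05. Tgfb1 carries 5 of the 12 stars, from -0.56 with basal epithelium to 0.68 with endothelium, and Tgfb2 and Pmepa1 carry none.

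The macrophage score was shared by more members than any other. It passed with Tgfbr1 (r = 0.57, rho = 0.52, permutation adjusted p = 0.00144), Ltbp2 (r = 0.52, rho = 0.51, permutation adjusted p = 0.00288) and Tgfbr3 (r = 0.42, rho = 0.40, permutation adjusted p = 0.0257) beside Tgfb1. Without the 2 farthest tumours r was 0.55, 0.46 and 0.47 for these 3 genes. Within host groups it ran from 0.42 to 0.83 for Tgfbr1 and from 0.35 to 0.75 for Ltbp2, but from -0.05 at 30 cGy to 0.88 at 80 cGy for Tgfbr3. Tgfbr3 passed with fibroblast markers as well (r = 0.39, rho = 0.37, permutation adjusted p = 0.0453 for r and 0.0541 for rho). Neither Tgfbr3 relation passed without tumours high in muscle or fat markers (r = 0.41 and 0.40, permutation adjusted p = 0.0592 each) or at junction scores above -2 (r = 0.30 and 0.32). Without the 2 tumours high in endothelium markers, Tgfbr3 passed with the endothelium score (r = 0.44, from 0.17 over all tumours), as did Smad7 (r = 0.39, from -0.04), Tgfbr1 with T cell markers (r = 0.39, from 0.36) and Ltbp2 with basal epithelial markers (r = -0.40, from -0.27).

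Smad7 passed with neutrophil markers (r = 0.44, rho = 0.47, permutation adjusted p = 0.02) and fibroblast markers (r = 0.40, rho = 0.46, permutation adjusted p = 0.0366). Both lists were on the higher side at 80 cGy, where Smad7 was highest. Within the 80 cGy group, r was 0.01 with neutrophil and 0.25 with fibroblast markers. With host group means taken out r was 0.41 and 0.36, and neither passed (permutation adjusted p = 0.0711 and 0.0856). Neither passed without tumours high in muscle or fat markers (r = 0.40 with neutrophil and 0.39 with fibroblast markers, permutation adjusted p = 0.0592 and 0.0695), and the neutrophil relation of Tgfb1 did not either (r = 0.38, adjusted p = 0.0718). Pmepa1 passed with no score. Tgfb3 was the member that went against neutrophil markers (r = -0.46, rho = -0.46, permutation adjusted p = 0.0142), with -0.40 without the 2 farthest tumours and -0.03 at 30 cGy. At junction scores above -2 it was -0.31 (permutation adjusted p = 0.205).

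For the epithelial junction score, the 37 tumours above -2 and the 8 below were taken separately, a division made after the scores were seen, with p adjusted over the 16 correlations. Among the 37, Pmepa1 was higher where junction genes were higher (r = 0.41, rho = 0.52, permutation adjusted p = 0.0452 for r and 0.00904 for rho). Tgfbr3 went the other way (r = -0.46, rho = -0.56, permutation adjusted p = 0.0203 for r and 0.0056 for rho). Without the 2 farthest tumours, r was 0.46 for Pmepa1 and -0.54 for Tgfbr3. Tgfbr1 had r = -0.49 (permutation adjusted p = 0.0196) but -0.29 without the 2 farthest and a rho of -0.31 that did not pass (adjusted p = 0.188). Among the 8, Tgfb3 ran from 7.98 to 10.10 and had r = 0.91 with the score (exact permutation p = 0.000818, adjusted p = 0.0131), 0.82 without the 2 farthest, while its rho of 0.86 did not pass (exact permutation, adjusted p = 0.0571).

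The genes whose pattern over the 45 tumours was most like a member's, by Pearson r among the kept genes other than the members, are given as a description. For Tgfb1 they were Csf2rb2 (0.78), Tfpi (0.77) and Adam19 (0.76), a cytokine receptor chain gene, a coagulation inhibitor gene and a metalloproteinase gene. For Tgfb2 they were Llgl2 (0.63), a cell polarity gene, Cdkl2 (0.61) and the glutamate transporter gene Slc1a1 (0.60). Those of Tgfb3 were the transferrin gene Trf (0.69) and the mucin genes Muc1 (0.68) and Muc15 (0.68).

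Nearest to Tgfbr1 were Oma1 (0.72), Hps3 (0.71) and Mpeg1 (0.70), a gene of macrophages, and nearest to Tgfbr3 were Zcchc24 (0.68), Poglut3 (0.68) and Rgs14 (0.66). Smad7 was closest to the serotonin receptor gene Htr2b (0.76), Mbd2 (0.72) and Zfp469 (0.69). Pmepa1 was closest to Fpgt (0.78), Smim3 (0.75) and Tor1aip2 (0.74), and Ltbp2 to Dennd10 (0.70), Tmem119 (0.64) and the protein kinase C gene Prkca (0.64). The members themselves were left out of this ranking. The r of 0.63 between Smad7 and Pmepa1 was below that of each of the 3 genes given for either.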

How the data were processed

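Log2 expression values per probe set were deposited by the authors for 45 single-colour Affymetrix arrays, 1 per tumour. RMA in the oligo package made them, per the submitters' processing notes, which name no version. The median log2 value per array was 5.48 to 5.80. Among 35556 probe sets, 21218 carried 1 symbol, 1881 several and 12457 none here. These covered 18820 genes, each read from its probe set with the highest mean, and genes above the table median of 5.67 in at least 8 tumours were kept. Groups were read from the titles.

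All 12123 kept genes were fitted together in limma 3.58.1 (R 4.3.3) on the 4 group means, with Benjamini-Hochberg adjustment and a threshold of 0.05. All tests were two-sided. Errors beside differences are standard errors. The code was tested on simulated data. Correlations and permutation tests used 100000 resamples (numpy), and exact enumeration for 8 tumours. The number of arrays limits the precision. The members and gene lists were chosen with earlier results of these data known. Genes were named by a rule: all members, any list gene that passed, otherwise up to 2 on each side with the smallest unadjusted p for all Si doses, and the 3 genes nearest each member.

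Alternatives were no filter, the mean over probe sets, median centring, array weights, another variance prior, tumours left out, marker scores or an array component as covariates, and blocks for code stem and replicate number. The use of a junction or endothelium score in these, and the division by junction score, came after the data were seen.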

Additional observations from a re-analysis of the deposited data

Results flagged for a closer look

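In 3 of 24 combinations of a gene and a dose group, 1 tumour lay farther from its nearest neighbour than Dixon's 95% critical value allows. Chance flags about 5% of such groups. Tgfb2 stood at 9.96 in 80 cGy replicate 1, with the next tumour at 8.84, a gap of 0.566 of the group's range against a critical value of 0.526. Tgfb3 stood at 8.27 in 10 cGy replicate 1, with the next at 9.28, a gap of 0.528 against 0.493. That tumour is the one whose endothelium score was 2.80, and the part of cell content in the low value was not tested. Tgfbr1 stood at 10.15 in 30 cGy replicate 2, with the next at 9.42, a gap of 0.496 against 0.466. The sham group of 18 tumours was not examined in this way.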

How the results depend on the processing

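No member passed under any alternative. Over 14 settings and 40 member results, 542 of 560 values kept the direction of the difference and 18 did not. No filter, the mean over probe sets and the other variance prior could not change a member's difference. Their share of the 542 was therefore fixed in advance. The lowest adjusted p was 0.06 in limma, for Pmepa1 at 80 cGy with array weights. Sparse groups and the number of arrays limit what small differences can be seen. Array weights called 30 genes at 80 cGy, 25 on dose and 2 among the 4 groups, where the fit without weights called 0. The cause was not tested. Leaving out 1 tumour gave 0 to 1 genes called for all Si doses (1 without 10 cGy replicate 5 and 1 without sham replicate 12), 0 to 1 at 80 cGy (1 without 80 cGy replicate 7) and 0 to 1 on dose (1 without 80 cGy replicate 2 and 1 without 80 cGy replicate 7).

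The titles' replicate numbers do not pair tumours: over 52 pairs of the same number in different groups, deviations from group means correlated between -0.52 and 0.34, with a median of -0.07. With a replicate block 6 genes were called for all Si doses and 1 at 80 cGy, and Tgfb1 was -0.12 over all doses and -0.06 at 10 cGy. With that block Smad7 and Pmepa1 at 80 cGy were 0.69 and 0.65. Ltbp2 was 0.34 over all doses, 0.36 at 10 cGy, 0.27 at 80 cGy and 0.020 on dose, and Tgfb3 0.15 at 10 cGy, 0.14 at 80 cGy and 0.015 on dose. Tgfbr1 was -0.33 over all doses and Tgfb1 0.06 at 80 cGy.

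The member differences that changed sign had 95% intervals that included 0 in the fit reported above. With sham codes beginning with 6, Tgfbr1 was 0.02 over all doses, 0.05 at 10 cGy and 0.04 at 30 cGy, Tgfb1 0.02, Tgfbr3 0.10 and Smad7 0.02 at 30 cGy, and Tgfbr3 0.14 at 80 cGy. With codes beginning with 5, Tgfb1 was -0.07 over all doses and Tgfb2 0.002 at 80 cGy. Tgfbr3 at 80 cGy was 0.02 with array weights, 0.07 with the array component, 0.03 with the code stem as a random block (correlation 0.241) and 0.01 with the junction score, which gave 0.02 at 30 cGy. Its slope was -0.010 with the fibroblast score. Smad7 at 30 cGy was 0.14 without muscle or fat. Leaving out 1 tumour, the ranges that crossed 0 were -0.14 to 0.03 for Smad7 at 30 cGy, -0.01 to 0.21 and -0.24 to 0.04 for Tgfb2 at 30 and 80 cGy, and -0.18 to 0.09, -0.16 to 0.16 and -0.005 to 0.033 for Tgfbr3 at 30 cGy, at 80 cGy and on dose. The cause was not tested.

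Of the 20 correlations that passed, none changed sign. The number that no longer passed was 6 without muscle or fat and 8 with group means taken out. It was 6 at junction scores above -2 and 1 without the 2 tumours high in endothelium markers. The mean over probe sets could not change a correlation, because each member had a single probe set with 1 symbol. With group means taken out, the pairs lost were Tgfb2 with Tgfbr3 and Pmepa1 with Ltbp2. The marker relations lost there were Tgfbr3 and Smad7 with fibroblast, Tgfbr3 with macrophage, and Tgfb1, Tgfb3 and Smad7 with neutrophil markers. Smad7 with Pmepa1 passed in every setting that could change it, as did Smad7 with Ltbp2, Tgfbr1 with Ltbp2 and Tgfb2 with Pmepa1. So did Tgfb1 with endothelium, fibroblast, macrophage and basal epithelial markers, and Tgfbr1 and Ltbp2 with macrophage markers. Others passed newly, 3 at junction scores above -2 and 7 without the 2 tumours high in endothelium markers, where Smad7 with the endothelium score turned from -0.04 to 0.39 (0.38 at junction scores above -2). Both settings leave out those 2 tumours, so they are not separate checks.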
